A study of Euphorbia esula with 15 samples.

Results

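The jasmonate genes of leafy spurge (Euphorbia esula) crown buds are those contigs of the RNA-seq assembly whose hormone class in the authors' annotation is JA, jasmonic acid. A contig is an assembled transcript, and contigs that the assembler grouped as likely forms of 1 gene make a component. The class was set by the best hit of a contig to an Arabidopsis protein, so each gene symbol below names the closest Arabidopsis gene and is not an ortholog call. In all, 544 of 569227 contigs carried the class, and they lay in 161 of 223732 components. The counts of the JA contigs alone were summed per component. A sum was kept when its mean normalized count was above 5 at 0, 6, 24 or 72 h, which left 53 components with 309 of the JA contigs. Of the rest, 40 components were at 0 in every library and 68 had counts but did not pass. The kept sums held 99.8% of all normalized counts on JA contigs. The kept components nearest the limit were ST2A comp112107_c0, with a highest mean of 6.86, and CYP94B3 comp129475_c0, with 7.54. The nearest ones outside it were the lipase-like PLA1y1 comp131548_c0, with 4.51, and AOS comp127799_c0, with 3.75.

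Leafy spurge is a perennial weed that regrows after its shoots are lost from adventitious buds on the crown, the top of the root system. While the shoot is in place these buds are paradormant, meaning that signals from the rest of the plant hold their growth back. The study took plants of 1 biotype, 1984-ND001, grown from a greenhouse stock and kept for 1 week in a growth chamber at 27 °C with 16 h of light. Crown buds were collected 6, 24 and 72 h after the aboveground shoot was cut away, and at 0 h from plants not yet cut. The hour of collection was the same in every group, noon by the study's methods and midnight by the labels. Poly A RNA of 15 samples was sequenced, 4 at each of 6, 24 and 72 h and 3 at 0 h. Each sample pooled buds of many plants, and a single biotype leaves variation between genotypes outside the p-values, which measure the spread between these pools. Removing the shoot also wounds the plant, and no group was wounded with its shoot kept, so wounding and the loss of the shoot cannot be told apart here. The sample labels give the plants' age as 3 months in 1 field and as 4 months in another.

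Jasmonates are lipid-derived plant hormones best known for the response to wounding and insect feeding, and they also restrain growth. In plastids, 13-lipoxygenases (LOX) oxygenate linolenic acid, after which allene oxide synthase (AOS) and allene oxide cyclase (AOC) make the cyclic precursor OPDA. In peroxisomes, OPDA reductase (OPR3) and rounds of beta-oxidation shorten it to jasmonic acid, which JAR1 joins to isoleucine to give the active hormone, JA-Ile. JA-Ile binds the receptor COI1 together with JAZ repressors, which are then degraded. JAZ proteins otherwise hold transcription factors such as MYC2 inactive through the adaptor NINJA and the corepressor TOPLESS (TPL). CYP94 enzymes and the sulfotransferase ST2A turn the hormone into inactive forms.

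At 0 h the library totals were 2569254 to 6649334 expected counts. They were 2589107 to 7981890 at 6 h, 3750902 to 8766393 after 24 h and 1847115 to 7253556 after 72 h. Expected counts are fragments that RSEM assigned to contigs in part where contigs are alike, so the counts of near-identical gene copies are uncertain. Normalized counts are expected counts over the median-of-ratios size factor of the library. The shoot meristem markers STM, KNAT1, CLV1 and ANT had counts in every library, REV had at most 1.63 normalized counts, and the root marker WOX5 had at most 0.644. No component had PLT1, RHD6, EXPA7 or COBL9, the other root markers, as its best hit. The libraries therefore carried most of the bud markers of their label. The share of counts on contigs with a non-plant best hit was 0.118 to 0.145% at 0 h, 0.114 to 0.133% at 6 h, 0.151 to 0.177% after 24 h, and 0.155 to 0.175% after 72 h. In whole buds, fewer cells of a type and less RNA per cell cannot be told apart.

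By the function column of the annotation, 29 of the 53 components belong to synthesis, 13 to catabolism, 10 to negative signaling and 1, the receptor COI1, to positive signaling. The summed synthesis counts were 7731 to 8397 normalized counts per library at 0 h, 9388 to 13666 at 6 h, 6361 to 7351 after 24 h, and 6249 to 6715 after 72 h. No 6 h library overlapped with those of the other time points. Summed catabolism counts were 697 to 982 at 0 h, 1099 to 1331 at 6 h, 903 to 1065 after 24 h, and 999 to 1093 after 72 h. Summed negative-signaling counts were 4146 to 4234 at 0 h, 3853 to 4133 at 6 h, 3468 to 4023 after 24 h, and 3517 to 3659 after 72 h, so that each library at 6, 24 and 72 h was under all 3 at 0 h. A single lipoxygenase, LOX2 comp137538_c0, made up 14.8 to 25.6% of the summed counts of all 53 components at 6 h and 3.06 to 7.38% at 0 h. Without it the sums over all other components were 12854 to 14329 at 6 h and 12661 to 12830 at 0 h. The summed synthesis counts without it overlapped between 6 h and 0 h, so their separation at 6 h rests on this component.

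Over the 4 time points together, 37 of the 53 components changed at an adjusted p of 0.05, where 53.8% of all 23237 components tested did. At 6 h against 0 h, 16 jasmonate components rose and 6 fell, which is 30.2% and 11.3% of the 53, beside 7.86% higher and 7.43% lower over all components. At 24 h against 0 h, 8 rose and 12 fell, beside 20.2% and 21.6% over all components. At 72 h against 0 h, 4 rose and 9 fell, beside 7.05% and 6.10%. The 3 comparisons share the same 0 h libraries. Of the 53, 6 passed the filter through their higher time points only, so the counts were also taken over the 47 with a mean above 5 at all 4 times. Of these, 14 rose and 6 fell at 6 h, 7 and 12 after 24 h, and 4 and 9 after 72 h. The counts depend on single libraries: 14 of the 22 calls at 6 h remained without 6 h replicate 2, and 8 of the 13 at 72 h remained without 0 h replicate 3. With any 1 library left out in turn, 11 of the 22 calls at 6 h, 16 of the 20 after 24 h, and 8 of the 13 after 72 h were kept each time.

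**Figure D1:**
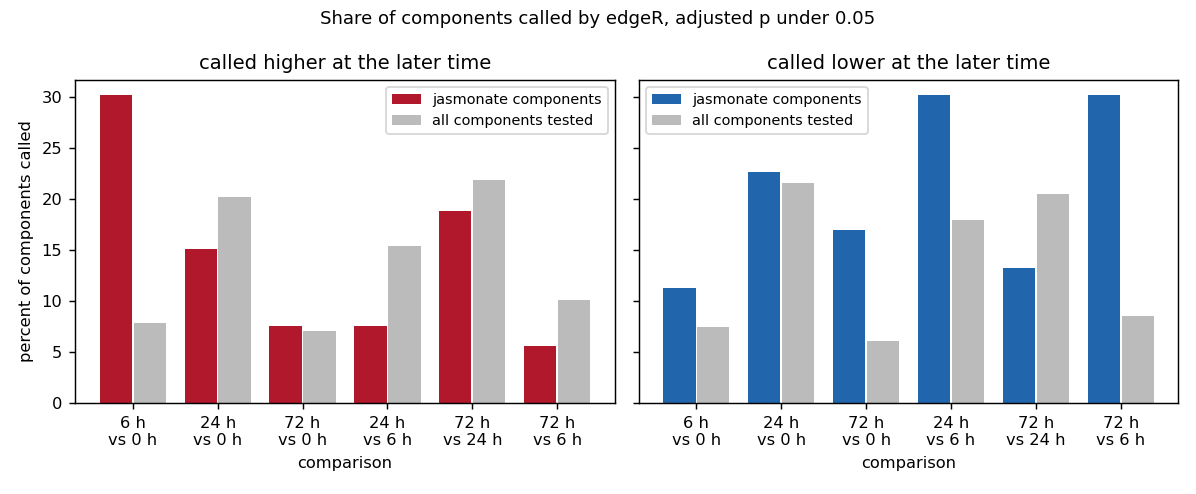
Share of components called higher or lower (y axis, percent) in each of the 6 comparisons between time points (x axis), for the jasmonate components (left bar of each pair, n = 53) and all components tested (right bar, n = 23237). At 6 h against 0 h the share called higher was 30.2% for jasmonate components and 7.86% for all, while at 24 h against 0 h the shares called lower were 22.6% and 21.6%.

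By function, of the 29 synthesis components, 9 rose and 3 fell at 6 h against 0 h (31.0% and 10.3%). Of the 13 catabolism components, 7 rose and none fell (53.8% and 0%). Of the 10 negative-signaling components, none rose and 3 fell (0% and 30%). Over all components the shares were 7.86% and 7.43%. At 24 h the counts were 3 higher and 8 lower for synthesis (10.3% and 27.6%) and 3 higher and none lower for catabolism (23.1% and 0%). For negative signaling 1 was higher and 4 lower (10% and 40%), beside 20.2% and 21.6% of all components. At 72 h the counts were 1 and 6, 2 and none, and 1 and 3 in the same order, beside 7.05% and 6.10% of all components. The median log2 change at 6 h was 0.45 over catabolism components, -0.01 over synthesis and 0.01 over negative signaling, where the median of all components was -0.00. The difference between the classes was not tested.

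**Figure D2:**
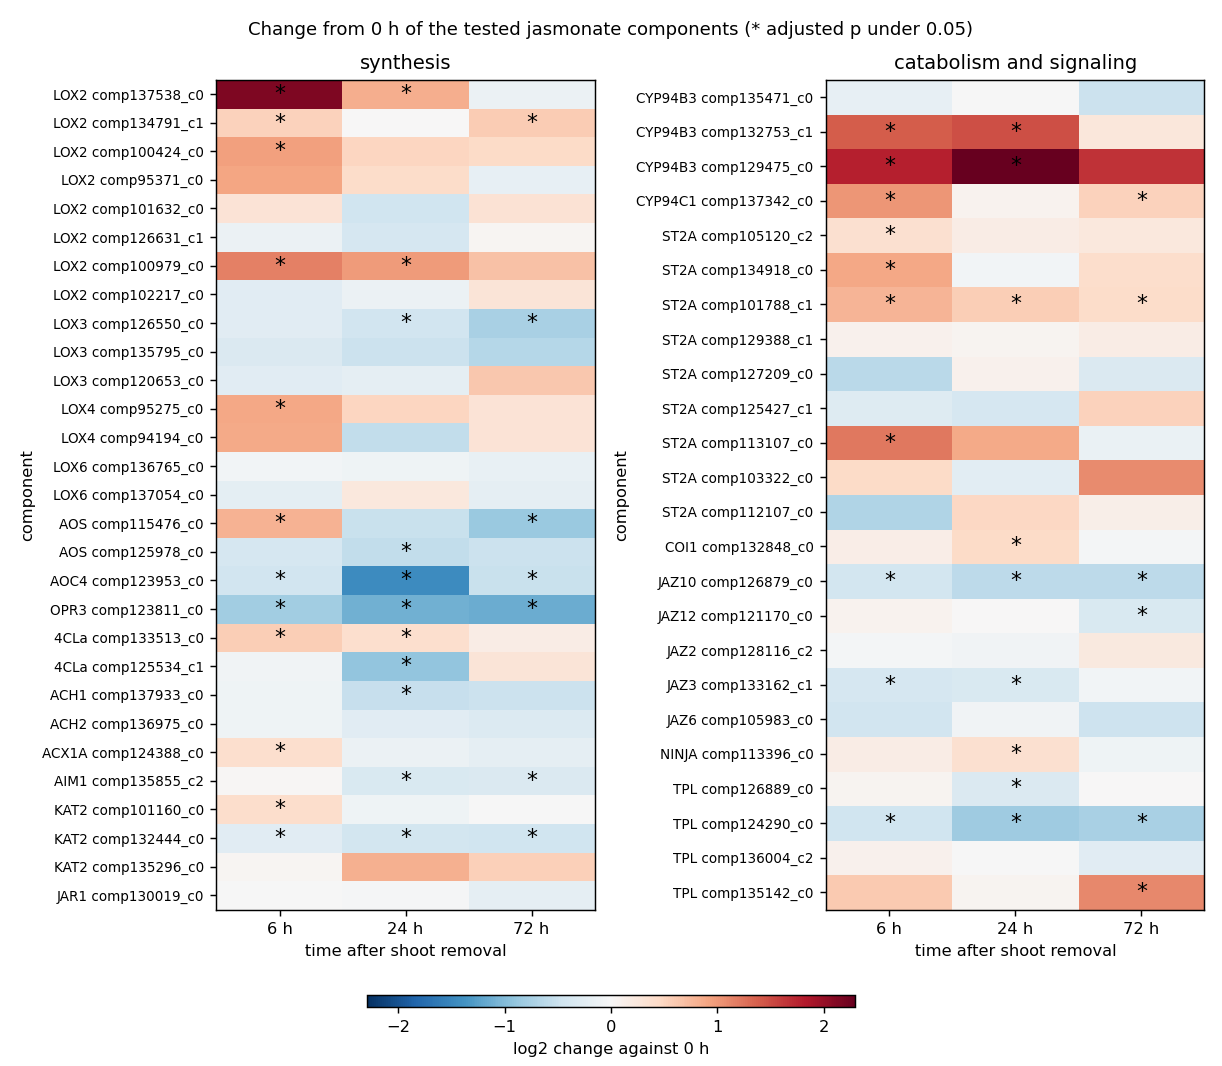
Fitted log2 change against 0 h of the 53 jasmonate components (rows, grouped by function) at 6, 24 and 72 h (columns), with red for higher and blue for lower and an asterisk for an adjusted p under 0.05. The darkest red at 6 h belongs to LOX2 comp137538_c0 (2.15), and AOC4 comp123953_c0 is lowest at 24 h (-1.45).

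Synthesis starts with the 13-lipoxygenases, of which 15 components were kept: 8 with LOX2 as best hit, 3 with LOX3, 2 with LOX4 and 2 with LOX6. At 6 h against 0 h, 5 of them rose and none fell (33.3% and 0%, beside 7.86% and 7.43% of all components). LOX2 comp137538_c0 had 668, 403 and 1009 normalized counts at 0 h, 2236, 2732, 4921 and 2716 at 6 h, 1161, 1114, 1726 and 1019 after 24 h, and 542, 509, 994 and 553 after 72 h, by replicate number. Its 6 h libraries were all above every other library, its 24 h libraries were above those of 0 h, and its 72 h libraries overlapped with them. The mean was 3151 ± 1202 at 6 h (SD, n = 4) against 693 ± 304 at 0 h (n = 3), a log2 change of 2.15 ± 0.28 (SE, adjusted p = 5.43e-06). At 24 h the log2 change against 0 h was 0.83 ± 0.27 (adjusted p = 0.0149). That call was lost without 0 h replicate 1 (adjusted p = 0.0511), 0 h replicate 2 (0.103) or 24 h replicate 3 (0.057), and in DESeq2 (0.0573). At 72 h it was -0.13 ± 0.27 (adjusted p = 0.824). Compared with 6 h, LOX2 comp137538_c0 fell by 1.32 at 24 h (adjusted p = 0.00015) and by 2.28 at 72 h (adjusted p = 1.09e-06) on the log2 scale.

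LOX2 comp100979_c0 had 12.1, 4.97 and 7.20 normalized counts at 0 h, 13.6, 22.7, 16.3 and 21.0 at 6 h, 15.3, 18.5, 16.1 and 17.9 after 24 h, and 7.85, 9.70, 27.1 and 14.2 after 72 h. The libraries at 6 and 24 h lay above those at 0 h, and those at 72 h overlapped with every other group. Its log2 change against 0 h was 1.15 ± 0.35 at 6 h (adjusted p = 0.0281) and 0.97 ± 0.34 at 24 h (adjusted p = 0.0256). The 6 h call was lost without 0 h replicate 2 (0.0886), 0 h replicate 3 (0.138), 6 h replicate 2 (0.132) or 6 h replicate 4 (0.0564). The 24 h call was lost without 0 h replicate 2 (0.081), 0 h replicate 3 (0.127) or 24 h replicate 2 (0.0571).

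The other 3 lipoxygenases that rose at 6 h were each lost without 1 or more libraries. LOX2 comp134791_c1 was higher at 6 h (149 ± 23.6 against 101 ± 16.8 normalized counts, adjusted p = 0.0111) and at 72 h (156 ± 15.8, adjusted p = 0.00676), with adjusted p of 0.0874 and 0.0599 once 0 h replicate 3 was left out. LOX2 comp100424_c0 (log2 change 0.95, adjusted p = 0.0182) was lost without 0 h replicate 2 (0.0551), 0 h replicate 3 (0.0936), 6 h replicate 1 (0.0501) or 6 h replicate 2 (0.098). LOX4 comp95275_c0 (log2 change 0.90, adjusted p = 0.0466) was lost under 12 alternatives. Among them were the replicate block (0.0863) and the fits without 0 h replicate 2 (0.103) or 3 (0.271), 6 h replicate 2 (0.338) or 4 (0.0672), 24 h replicate 4 (0.0504), or 72 h replicate 2 (0.0539), 3 (0.0561) or 4 (0.0536). LOX3 comp126550_c0 went the other way: it averaged 389.9 ± 52.2 normalized counts at 72 h against 660.5 ± 87.3 at 0 h, a log2 change of -0.74 ± 0.11 (adjusted p = 8.76e-05), and 484 ± 66.9 at 24 h (adjusted p = 0.00213). The 2 LOX6 components, comp136765_c0 and comp137054_c0, LOX3 comp135795_c0 and comp120653_c0, and LOX2 comp126631_c1 and comp102217_c0 were not called over the 4 time points. Nor was LOX4 comp95275_c0 (adjusted p = 0.0698), although it was called at 6 h. LOX2 comp95371_c0 and comp101632_c0 were called over the 4 time points and in no comparison with 0 h. LOX4 comp94194_c0 passed the filter on its means at 0, 6 and 72 h only, that at 24 h being 3.28, so no test of it is given.

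**Figure D3:**
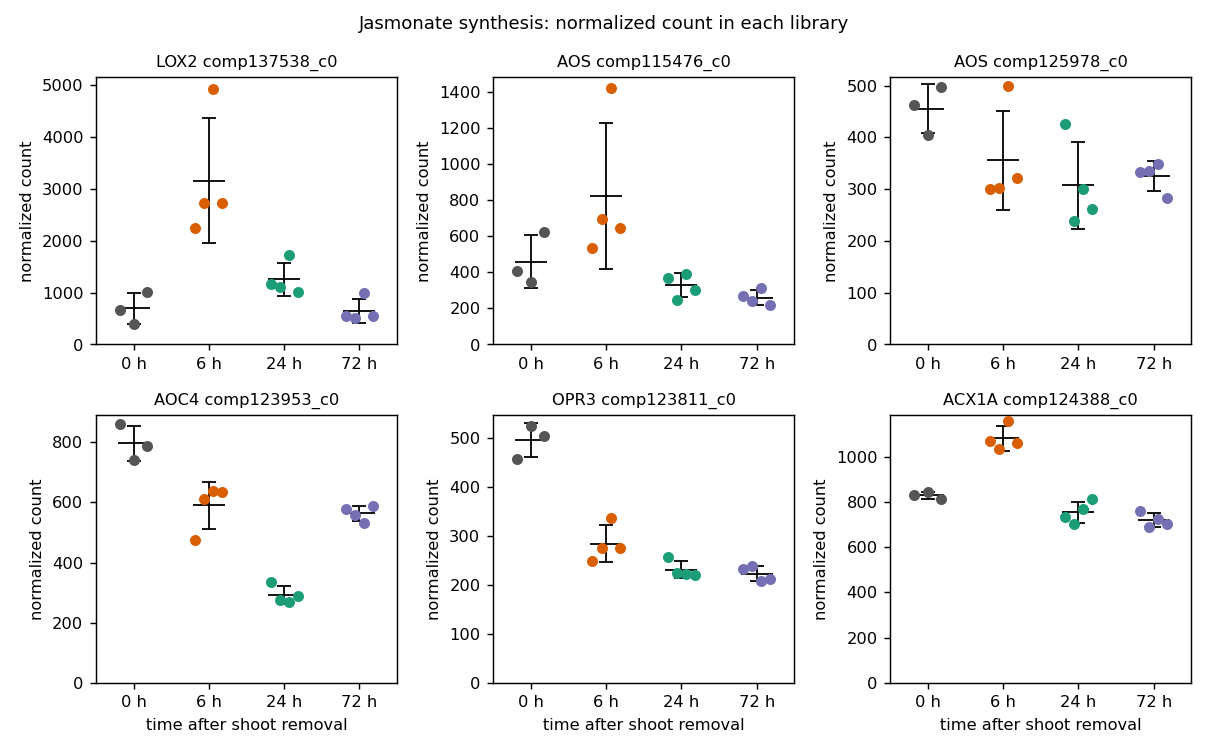
Normalized counts (y axes, from 0) of 6 synthesis components at 0, 6, 24 and 72 h (x axes), each point a library, with the mean as a dash and the SD as bars (n = 3 at 0 h, n = 4 at later times). LOX2 comp137538_c0 peaks at 6 h with 2236 to 4921 normalized counts, AOC4 comp123953_c0 is lowest at 24 h with 267 to 335, and OPR3 comp123811_c0 is at 338 or less in every library after 0 h.

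AOS, which turns the lipoxygenase product into an unstable allene oxide, was the best hit of 2 kept components that had fitted changes of opposite sign at 6 h. Both are given in full although the rule for named genes did not pick them, a choice made after their values had been seen. AOS comp115476_c0 had 406, 345 and 625 normalized counts at 0 h, 534, 693, 1421 and 646 at 6 h, 369, 244, 392 and 303 after 24 h, and 269, 241, 310.4 and 217 after 72 h. The libraries at 0 and 6 h overlapped, and those at 72 h were all below both. Relative to 0 h, the log2 change was 0.80 ± 0.24 at 6 h (adjusted p = 0.024) and -0.85 ± 0.26 at 72 h (adjusted p = 0.0289). The 6 h call was lost without 0 h replicate 1 (0.0999), 0 h replicate 2 (0.119) or 6 h replicate 3, when the log2 change was 0.43 (adjusted p = 0.112), and in DESeq2 (0.0675). The 72 h call was lost without 0 h replicate 3 (log2 change -0.55, adjusted p = 0.234), 72 h replicate 1 (0.0529), replicate 2 (0.0976) or replicate 4 (0.0749), and in DESeq2 (0.0984). Its fall of 1.31 at 24 h (adjusted p = 6.21e-05) and 1.65 at 72 h (adjusted p = 2.64e-05) relative to 6 h on the log2 scale was kept without any 1 library. The 1 JA contig of this component carried 78.5% of its counts, and its other 4 contigs had AT4G15440, a hydroperoxide lyase of the same P450 family, as best hit.

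AOS comp125978_c0, whose best hit in the NR protein database was named allene oxide synthase, had 463, 405 and 498 normalized counts at 0 h, 299.8, 303, 499 and 321 at 6 h, 426, 239, 301 and 262 after 24 h, and 334, 336, 348 and 283 after 72 h. In each later group at least 3 of 4 libraries were under the 3 at 0 h. Its log2 change from 0 h was -0.39 ± 0.16 at 6 h (adjusted p = 0.114), -0.57 ± 0.16 at 24 h (adjusted p = 0.00581) and -0.49 ± 0.17 at 72 h (adjusted p = 0.0573). Without 6 h replicate 3, its value at 6 h was -0.58 (adjusted p = 0.00999).

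AOC, which closes the ring of OPDA, was represented by 1 kept component, AOC4 comp123953_c0. It had 859, 742 and 787 normalized counts at 0 h, 475, 612, 637 and 636 at 6 h, 335, 276, 267 and 290.1 after 24 h, and 577, 557, 531 and 588 after 72 h. Every later library was under all 3 at 0 h, and the 24 h libraries were under all others. Against 0 h (796 ± 59.1), the mean was 589.8 ± 77.4 at 6 h (log2 change -0.44 ± 0.10, adjusted p = 0.00243), 292 ± 30.1 at 24 h (-1.45 ± 0.10, adjusted p = 8.33e-11) and 563 ± 25.1 at 72 h (-0.51 ± 0.10, adjusted p = 0.000939). It rose again by 0.94 ± 0.09 at 72 h compared with 24 h (adjusted p = 2.25e-08). Its JA contigs had AOC2, AOC3 and AOC4 as best hits, so the copy behind the counts cannot be told from the names.

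OPR3, the peroxisomal OPDA reductase, fell and stayed down. OPR3 comp123811_c0 had 458, 525 and 505 normalized counts at 0 h, 249, 275, 338 and 276 at 6 h, 256, 225, 222 and 219.8 after 24 h, and 234, 238, 207 and 213 after 72 h. No library after 0 h reached the lowest at 0 h. Set against 0 h, the log2 change was -0.81 ± 0.09 at 6 h (adjusted p = 1.41e-06), -1.10 ± 0.09 at 24 h (adjusted p = 3.45e-09) and -1.14 ± 0.10 at 72 h (adjusted p = 3.72e-08).

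The 9 beta-oxidation components, whose enzymes activate, oxidize and cleave the side chain of the reduced precursor, did not move as 1 block: 3 rose and 1 fell at 6 h against 0 h, 1 rose and 4 fell at 24 h, and 2 fell at 72 h. ACX1A comp124388_c0, an acyl-CoA oxidase that catalyzes the first oxidation, is given in full outside the rule for named genes. It had 830.1, 844 and 815 normalized counts at 0 h, 1069, 1035, 1161 and 1064 at 6 h, 734, 705, 768 and 813 after 24 h, and 759.8, 690.5, 727 and 705 after 72 h. All 6 h libraries were above all others. The log2 change at 6 h against 0 h was 0.38 ± 0.07 (adjusted p = 0.000733), and relative to 6 h the component fell by 0.52 at 24 h (adjusted p = 2.33e-06) and by 0.59 at 72 h (adjusted p = 2.2e-06).

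KAT2, the thiolase of the last beta-oxidation step, was the best hit of 3 kept components. KAT2 comp101160_c0 rose at 6 h to 1407 ± 79.5 normalized counts, against 1066 ± 52.7 at 0 h (log2 change 0.40 ± 0.08, adjusted p = 0.0014). KAT2 comp132444_c0 fell to 364 ± 27.5 at 24 h (adjusted p = 0.000239) and 357 ± 15.9 at 72 h (adjusted p = 0.000816), against 487 ± 38.6 at 0 h. The smaller KAT2 comp135296_c0 was not called, and only 28.3% of its counts lay on JA contigs. 4CLa, a 4-coumarate-CoA-ligase-like enzyme that activates acyl chains, had a component that rose at 6 h, comp133513_c0 (log2 change 0.56 ± 0.11, adjusted p = 0.00075). Its other component, comp125534_c1, fell at 24 h to 93.1 ± 14.2, against 175 ± 21.4 at 0 h (-0.91 ± 0.12, adjusted p = 2.35e-06), and at 72 h was 1.21 ± 0.12 above 24 h on the log2 scale (adjusted p = 1.24e-08). AIM1 comp135855_c2, the multifunctional protein of the cycle, had a log2 change of -0.34 at both 24 h (adjusted p = 0.000846) and 72 h (adjusted p = 0.00456). The thioesterase-like ACH1 comp137933_c0 fell by 0.54 at 24 h (adjusted p = 0.00927, or 0.0667 with no filter on low counts), while ACH2 comp136975_c0 was not called.

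JAR1, which makes the active JA-Ile conjugate, was not called in any comparison. JAR1 comp130019_c0 averaged 137 normalized counts at 0 h, 136 at 6 h, 134 after 24 h, and 118 after 72 h, with log2 changes against 0 h of -0.01, -0.03 and -0.21. Of the lipase components with DAD1 or PLA1 names, which release the fatty acid precursor, 0 of 4 passed the filter.

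Of the 13 catabolism components, 7 rose at 6 h against 0 h, 53.8% beside 7.86% of all components. At 24 h 3 rose, 23.1% beside 20.2%, and at 72 h 2 rose, 15.4% beside 7.05%. None fell in these comparisons. Of the 4 CYP94 components, whose enzymes oxidize JA-Ile and so remove the active hormone, 3 rose at 6 h. The catabolism and CYP94 counts at 6 h, and the catabolism count at 24 h, include CYP94B3 comp129475_c0. That component passed the filter through its later time points only. CYP94C1 comp137342_c0 had 90.7, 91.2 and 96.9 normalized counts at 0 h, 199, 200.1, 183 and 172 at 6 h, 106, 73.6, 132 and 79.2 after 24 h, and 141, 123, 148 and 132 after 72 h. The 6 h libraries were above all others, the 24 h libraries overlapped with 0 h, and the 72 h libraries were above 0 h. Relative to 0 h, the log2 change was 1.02 ± 0.15 at 6 h (adjusted p = 4.66e-05) and 0.07 ± 0.16 at 24 h (adjusted p = 0.744). At 72 h it was 0.53 ± 0.16 (adjusted p = 0.0318), and this call was lost without 0 h replicate 1 (0.0935), 2 (0.0728) or 3 (0.0689), or without 72 h replicate 1 (0.0628), 3 (0.0854) or 4 (0.0517).

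CYP94B3 comp132753_c1 had 7.29, 8.29 and 7.86 normalized counts at 0 h, 25.9, 20.1, 22.8 and 14.0 at 6 h, 23.8, 20.8, 22.5 and 19.0 after 24 h, and 11.8, 6.85, 13.7 and 6.59 after 72 h. All libraries at 6 and 24 h were above all at 0 h and 72 h. Its log2 change from 0 h was 1.39 ± 0.30 at 6 h (adjusted p = 0.00204), 1.48 ± 0.28 at 24 h (adjusted p = 0.000192) and 0.26 ± 0.36 at 72 h (adjusted p = 0.768). At 72 h it fell by 1.21 relative to 24 h (adjusted p = 0.000864).

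CYP94B3 comp129475_c0 was a low component, with expected counts of 2, 1 and 2 at 0 h after rounding. Its normalized counts were 1.62, 1.66 and 1.31 at 0 h, 6.17, 5.67, 4.89 and 4.67 at 6 h, 8.51, 8.54, 6.44 and 6.69 after 24 h, and 6.83, 3.42, 6.70 and 7.09 after 72 h. Every later library was above all 3 at 0 h. The component passed the filter on its means at 6, 24 and 72 h only, so no test of it is given. The remaining CYP94B3 comp135471_c0 was not called.

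**Figure D4:**
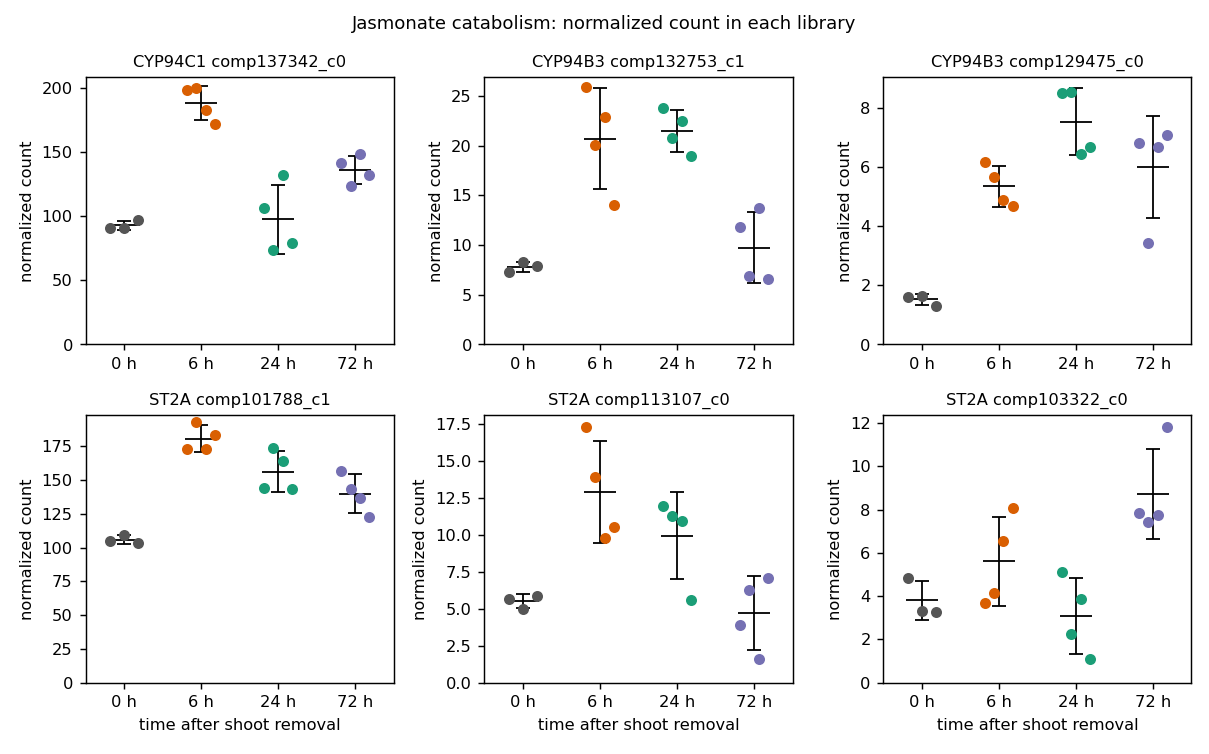
Normalized counts (y axes, from 0) of 3 CYP94 and 3 ST2A components at 0, 6, 24 and 72 h (x axes), each point a library, with the mean as a dash and the SD as bars (n = 3 at 0 h, n = 4 at later times). CYP94C1 comp137342_c0 lies at 172 to 200.1 at 6 h and 90.7 to 96.9 at 0 h, whereas CYP94B3 comp132753_c1 is high at both 6 and 24 h.

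ST2A sulfonates hydroxylated jasmonic acid in Arabidopsis and was the best hit of 9 kept components. Their best hits in the NR database were flavonol sulfotransferases, so their substrate is not known from the annotation. Of the 9, 4 rose at 6 h (44.4%, beside 7.86% of all components). ST2A comp101788_c1 had 105, 109 and 103 normalized counts at 0 h, 173, 193, 173 and 183 at 6 h, 144, 173, 164 and 144 after 24 h, and 157, 143, 137 and 123 after 72 h. Every later library was above all 3 at 0 h. Relative to 0 h, the log2 change was 0.78 ± 0.11 at 6 h (adjusted p = 1.6e-05), 0.57 ± 0.11 at 24 h (adjusted p = 0.000136) and 0.42 ± 0.11 at 72 h (adjusted p = 0.0167). The 72 h call was lost without 0 h replicate 1 (0.0523), 0 h replicate 3 (0.0717) or 72 h replicate 2 (0.0587), and with no filter (0.0858).

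ST2A comp113107_c0 had 5.67, 4.97 and 5.89 normalized counts at 0 h, 17.3, 13.9, 9.79 and 10.5 at 6 h, 11.9, 11.3, 10.9 and 5.58 after 24 h, and 3.93, 6.28, 1.59 and 7.09 after 72 h. The 6 h libraries were above those at 0 h, and the 24 and 72 h libraries overlapped with 0 h. The log2 change at 6 h against 0 h was 1.21 ± 0.37 (adjusted p = 0.0264). This call was lost without 0 h replicate 1 (0.0755), 2 (0.0627) or 3 (0.0809), without 6 h replicate 1 (0.0781) or 2 (0.0849), with no filter (0.089) and in DESeq2 (0.0748). The component passed the filter on its means at 0, 6 and 24 h, that at 72 h being 4.72. At 72 h it was 1.36 lower than at 6 h on the log2 scale (log2 change -1.36 ± 0.37, adjusted p = 0.0115).

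ST2A comp103322_c0 had 4.86, 3.31 and 3.27 normalized counts at 0 h, 3.70, 4.13, 6.53 and 8.06 at 6 h, 5.11, 2.26, 3.86 and 1.12 after 24 h, and 7.85, 7.42, 7.75 and 11.8 after 72 h. The 72 h libraries were above all at 0 h and 24 h. The component passed the filter on its means at 6 and 72 h only, 5.60 and 8.71, and those at 0 and 24 h were 3.82 and 3.09, so no test of it is given. Both other ST2A components called at 6 h depended on single libraries. ST2A comp105120_c2 (log2 change 0.36, adjusted p = 0.0174) was lost without 0 h replicate 2 (0.0645), 0 h replicate 3 (0.101) or 6 h replicate 2 (0.0814). ST2A comp134918_c0 (0.88, adjusted p = 0.0282) was lost without 0 h replicate 2 (0.0537), 0 h replicate 3 (0.178), 6 h replicate 1 (0.0975) or 6 h replicate 2 (0.0916), and 66.9% of its counts lay on its JA contig, with 11 other contigs closest to AT5G07000, a neighboring sulfotransferase gene. ST2A comp127209_c0, comp125427_c1, comp112107_c0 and comp129388_c1 were not called against 0 h.

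COI1, the F-box protein that binds JA-Ile, was also measured by RT-qPCR in the study. Its primers are shown because they define the COI1 transcript that was assayed. Their match to the component below was not checked.
COI1 forward: agttttgtggtggctcattca
COI1 reverse: atttcttgctcgtctgctcctctt
The primers are 21 and 24 bases long. COI1 comp132848_c0 had 336, 376 and 342 normalized counts at 0 h, 426, 378, 352 and 401 at 6 h, 467, 447, 470.4 and 522 after 24 h, and 380.2, 313, 345 and 333 after 72 h. The 24 h libraries were above all others, while those at 6 and 72 h overlapped with 0 h. Its log2 change from 0 h was 0.15 ± 0.09 at 6 h (adjusted p = 0.272), 0.44 ± 0.09 at 24 h (adjusted p = 0.000231) and -0.04 ± 0.09 at 72 h (adjusted p = 0.836). At 24 h it was also higher than at 6 h (0.29 ± 0.08, adjusted p = 0.00682), and at 72 h lower than at 24 h (-0.48 ± 0.08, adjusted p = 4.33e-05). Of its 2 contigs, 1 averaged 311, 257, 327 and 302 normalized counts at 0, 6, 24 and 72 h, and the other 40.2, 132, 150 and 40.7. The smaller contig was thus higher at 6 and 24 h than at 0 and 72 h. The share given to each contig rests on RSEM's split of common reads and was not tested.

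JAZ proteins repress jasmonate responses until COI1 marks them for degradation, and JAZ genes are themselves jasmonate-induced in Arabidopsis. None of the 5 kept JAZ components was called higher at 6, 24 or 72 h than at 0 h, and 2 were called lower at each time. That is 40% lower at each time, beside 7.43%, 21.6% and 6.10% of all components. JAZ10 comp126879_c0 had 437, 433 and 427 normalized counts at 0 h, 331, 307, 343 and 310.2 at 6 h, 312, 307, 249 and 259 after 24 h, and 279, 300.5, 293 and 258 after 72 h. Every later library was under all 3 at 0 h. The log2 change was -0.43 ± 0.09 at 6 h (adjusted p = 0.00153), -0.61 ± 0.09 at 24 h (adjusted p = 5.45e-06) and -0.60 ± 0.09 at 72 h (adjusted p = 8.77e-05). Its contigs had unlike courses, which were not tested: contig 8 averaged 107, 30.6, 16.0 and 1.78 normalized counts at 0, 6, 24 and 72 h, and contig 9 78.6, 106, 107 and 116.

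JAZ3 comp133162_c1 averaged 411 ± 19.4 normalized counts at 6 h against 537 ± 44.2 at 0 h (log2 change -0.39 ± 0.10, adjusted p = 0.00928) and 424 ± 66.4 at 24 h (-0.35 ± 0.10, adjusted p = 0.00693). Both calls were lost without 0 h replicate 1 (0.0719 and 0.0611). Of the 3 comparisons with 0 h, JAZ12 comp121170_c0 was called in that at 72 h (-0.35 ± 0.09, adjusted p = 0.00994). At 72 h it also fell by 0.36 relative to 24 h (adjusted p = 0.00106) and by 0.44 relative to 6 h (adjusted p = 0.000551). JAZ2 comp128116_c2 and JAZ6 comp105983_c0 were not called.

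**Figure D5:**
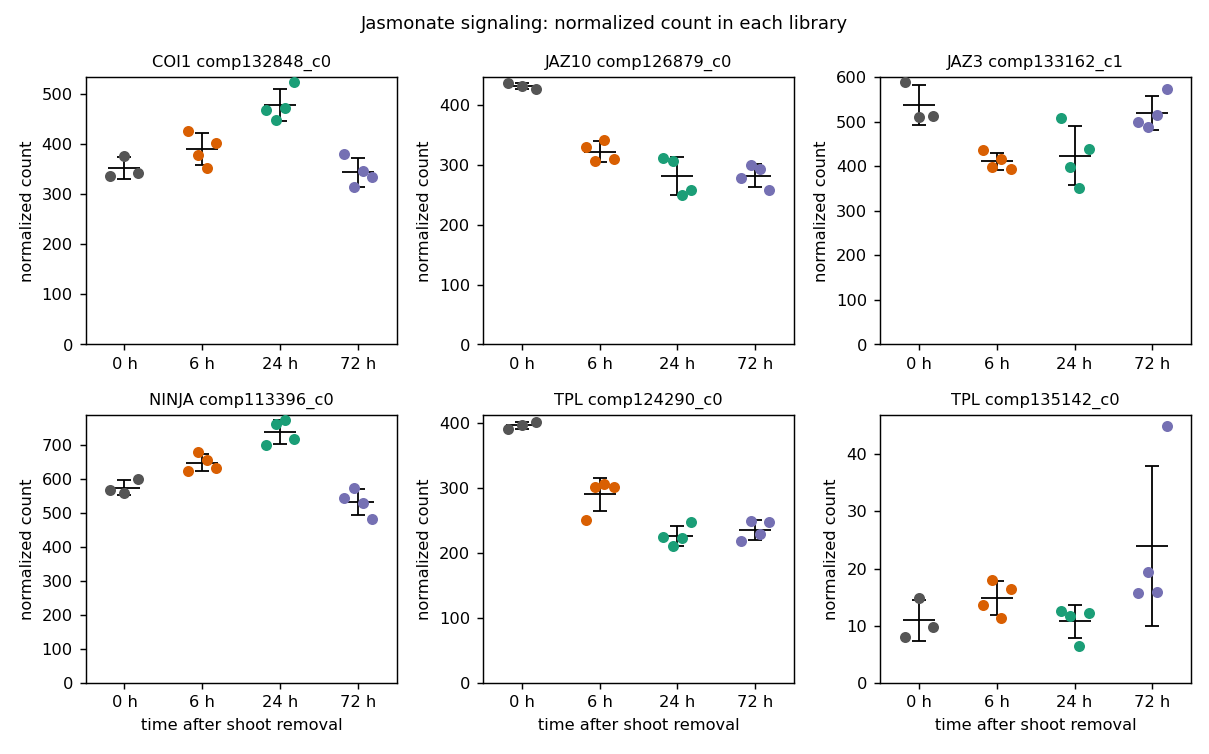
Normalized counts (y axes, from 0) of the receptor COI1 and 5 negative-signaling components at 0, 6, 24 and 72 h (x axes), each point a library, with the mean as a dash and the SD as bars (n = 3 at 0 h, n = 4 at later times). COI1 comp132848_c0 and NINJA comp113396_c0 are highest at 24 h, and JAZ10 comp126879_c0 and TPL comp124290_c0 are highest at 0 h.

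NINJA links JAZ proteins to the corepressor TPL, which also serves auxin and other pathways. NINJA comp113396_c0 had 568, 559 and 601 normalized counts at 0 h, 626, 680.4, 656 and 634 at 6 h, 702, 764, 774 and 720.2 after 24 h, and 546, 574, 529 and 484 after 72 h. The 24 h libraries were above all others, as those of COI1 were. Set against 0 h, the log2 change was 0.17 at 6 h (adjusted p = 0.135) and 0.36 ± 0.07 at 24 h (adjusted p = 0.000409). At 72 h it fell by 0.46 relative to 24 h (adjusted p = 9.83e-06).

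TPL comp124290_c0 had 391, 398 and 402 normalized counts at 0 h, 252, 302, 307 and 301 at 6 h, 225, 211, 223 and 248 after 24 h, and 218, 249.9, 229 and 248 after 72 h. Every later library was under all 3 at 0 h. The log2 change was -0.45 ± 0.09 at 6 h (adjusted p = 0.00065), -0.82 ± 0.08 at 24 h (adjusted p = 5.99e-08) and -0.74 ± 0.09 at 72 h (adjusted p = 4.41e-06). The other TPL components had other calls: TPL comp126889_c0 fell at 24 h alone among the comparisons with 0 h (-0.33, adjusted p = 0.00187) and at 72 h was 0.35 above 24 h (adjusted p = 0.000731), and TPL comp136004_c2 was not called.

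TPL comp135142_c0 had 8.10, 14.9 and 9.82 normalized counts at 0 h, 13.6, 18.1, 11.4 and 16.4 at 6 h, 12.5, 11.7, 6.44 and 12.3 after 24 h, and 15.7, 19.4, 15.9 and 44.9 after 72 h. The 72 h libraries were above those at 0 h, and replicate 4 was far above its group. The log2 change at 72 h against 0 h was 1.10 ± 0.36 (adjusted p = 0.0432). Without 72 h replicate 4 it was 0.78 (adjusted p = 0.137), and the call was also lost with a replicate block (0.101), without 0 h replicate 1 (0.159), 0 h replicate 3 (0.138), 6 h replicate 1 (0.0508), 6 h replicate 4 (0.0516) or 72 h replicate 2 (0.0664), and in DESeq2 (0.0543).

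Relative to 6 h, more jasmonate components fell than rose at both later time points. At 24 h against 6 h, 4 rose and 16 fell, which is 7.55% and 30.2%, beside 15.4% and 18.0% of all components. At 72 h against 6 h, 3 rose and 16 fell, which is 5.66% and 30.2%, beside 10.1% and 8.51%. At 72 h against 24 h, 10 rose and 7 fell, which is 18.9% and 13.2%, beside 21.9% and 20.5%. Over the 47 components with a mean above 5 at all 4 times, 3 rose and 15 fell in each of the comparisons with 6 h. At 72 h against 24 h, 9 of the 47 rose and 6 fell. The comparisons with 6 h share its libraries. Synthesis, 54.7% of the 53 components, made up 12 of the 16 that fell at 24 h and 9 of the 16 that fell at 72 h relative to 6 h. Among the 37 components called over the 4 time points, the highest mean was at 0 h for 9, at 6 h for 17, at 24 h for 5 and at 72 h for 6. For the 19 synthesis components among them it was at 0 h for 6, at 6 h for 10, at 72 h for 3 and at 24 h for none. The time of the highest mean was not counted over all components, so these counts have no share beside them.

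Other genes of the jasmonate pathway and genes related to it, which the hormone class leaves out, were followed from a list of 78 Arabidopsis genes. Of these, 27 were the best hit of 55 tested components. Among the 55 were 9 with a 9-lipoxygenase, LOX1 or LOX5, as best hit, which is not a step of the route described above. Of these 9, 1 rose at 6 h, 1 rose at 24 h and 2 fell at 72 h against 0 h. At 6 h against 0 h, 11 of the 55 rose and 6 fell (20% and 10.9%, beside 7.86% and 7.43% of all components). At 24 h the counts were 5 and 9 (9.09% and 16.4%, beside 20.2% and 21.6%), and at 72 h 1 and 10 (1.82% and 18.2%, beside 7.05% and 6.10%). JOX1, which hydroxylates jasmonic acid and so diverts it from JA-Ile, was the Arabidopsis best hit of comp122979_c1. The NR best hit of this component was a leucoanthocyanidin dioxygenase, so its substrate is not known from the annotation. It rose, with an average of 97.7 normalized counts at 6 h against 16.5 at 0 h (log2 change 2.41 ± 0.25, adjusted p = 2.34e-07) and 37.9 at 24 h (1.03, adjusted p = 0.00299). Of the 10 catabolism components in this list, 4 rose at 6 h and none fell (40% and 0%, beside 7.86% and 7.43% of all components). Besides JOX1 they were IAR3 comp117261_c1, ILL6 comp110409_c0 and ILL6 comp128893_c0. Their best hits in the NR database were IAA-amino acid hydrolases, so their substrate is not known from the annotation. JOX2 comp114482_c0 (adjusted p = 0.133) and the CYP94B1 components were not called at 6 h. Of the 6 components of transcriptional activators, none rose and 3 fell at 6 h (0% and 50%, beside 7.86% and 7.43% of all components). Among the 3, MYC4 comp131257_c0 passed the filter through 0 h only, with means of 6.71 at 0 h and 0.958 at 6 h. No count limited to components above 5 at all 4 times was made for this list. MYC2, the main activator of jasmonate responses, was the Arabidopsis best hit of comp135828_c0, whose NR best hit was named only a DNA binding protein. That component was lower, with 148 normalized counts at 6 h against 240.1 at 0 h (-0.73 ± 0.15, adjusted p = 0.000961). MYC4, a related activator, was the Arabidopsis best hit of comp127050_c0, but the NR best hit of this component was named AtMYC2. It averaged 828 at 6 h against 805 at 0 h (0.04 ± 0.10, adjusted p = 0.836), and was higher at 24 h with 999 (0.32 ± 0.10, adjusted p = 0.0142). Which component is the MYC2 of the buds is thus not known from the annotation. The desaturase FAD3 comp108150_c0, which makes linolenic acid, averaged 1113, 716, 444 and 897 normalized counts at 0, 6, 24 and 72 h. Its log2 change at 24 h against 0 h was -1.33 ± 0.09 (adjusted p = 8.33e-11), so it was lowest at 24 h, as AOC4 comp123953_c0 was. The FAD8 components, with chloroplast omega-3 desaturases as NR best hits, were not called against 0 h. At 24 h the log2 change was -0.21 for comp125009_c0 (adjusted p = 0.219) and 0.13 for comp101705_c0 (adjusted p = 0.698). ORA59 comp95419_c0, a transcription factor of joint jasmonate and ethylene responses, had a log2 change of -0.71 at 24 h (adjusted p = 8.69e-05) and -1.09 at 72 h (adjusted p = 1.48e-05).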

How the data were processed

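The authors trimmed paired-end reads of strand-specific libraries with Sickle, assembled them with other leafy spurge reads by Trinity, assigned best hits by BLASTX and counted fragments with RSEM over bowtie, with the option that keeps 1 strand; whether it is the coding strand was not checked. The deposited table holds expected counts per contig and component, which need not be whole: 43.1% of nonzero contig values were whole within 0.005. Its 2 columns of the authors' own EBSeq comparison, posterior probabilities of change, were not used. All values were columns of the 15 libraries.

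JA contigs were summed per component and stood in for their component. Expected counts were rounded and tested with edgeR 4.0.16 (quasi-likelihood, 15 libraries, 4 groups, R 4.3.3) with size factors from the whole components. Benjamini-Hochberg adjustment ran over all 23237 components with a mean normalized count above 5 at any time point, with a threshold of 0.05. Means ± SD are of normalized counts, and log2 changes ± SE are from the fit. The test was tried on simulated counts. DESeq2 1.42.0, TMM scaling, no filter, the filter of the study (above 10 in every library of a time point), whole-component counts, a replicate block and leaving out each library were alternatives. Tables and figures used Python 3.11.15, pandas 2.3.3, numpy 2.4.6 and matplotlib 3.10.9.

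The members, gene lists and tests were chosen with earlier results of these data known. All 53 components are named or counted. Values in every library are given for components called over the 4 time points with a log2 change from 0 h of at least 1, for the 2 with the lowest p in each function class, and for COI1; other components are given by values of calls. The 2 AOS components, ACX1A comp124388_c0 and NINJA comp113396_c0, which this rule does not pick, were added after their values had been seen.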

Additional observations from a re-analysis of the deposited data

Results flagged for a closer look

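Among groups of 4 libraries of the components given in full, 42 were searched for a library whose gap to its nearest neighbor took up most of the group's range, at a limit that chance passes in about 1 of 20 groups, and 9 were found. At 6 h, replicate 1 was the lowest library both for AOC4 comp123953_c0 (475 normalized counts) and for TPL comp124290_c0 (252). At 24 h, replicate 1 was the highest for OPR3 comp123811_c0 (256), replicate 3 the lowest for TPL comp135142_c0 (6.44) and replicate 4 the lowest for ST2A comp113107_c0 (5.58). At 72 h, replicate 4 was the highest for TPL comp135142_c0 (44.9) and for ST2A comp103322_c0 (11.8), replicate 3 the highest for LOX2 comp137538_c0 (994), and replicate 2 the lowest for CYP94B3 comp129475_c0 (3.42).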

How the results depend on the processing

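The 53 sums rest on the authors' best hits, on counts that RSEM shares among similar contigs, and on 3 libraries at 0 h that 3 comparisons have in common. Of the 584 values of named changes under the alternatives, 543 stayed on their side of the threshold, 41 lost the call and none changed direction. The named components were mostly picked by their change or p in these data, and CYP94B3 comp129475_c0 is among them. Many of the alternatives left out a library of a time point outside the comparison. These values therefore do not measure how all calls hold, which is counted further above. With 1 library left out, the calls over the 4 time points were 31 to 38; at 6 h against 0 h 14 to 25, the lowest without 6 h replicate 2; at 24 h against 0 h 18 to 22; at 72 h against 0 h 8 to 15, the lowest without 0 h replicate 3; at 24 h against 6 h 18 to 23; at 72 h against 24 h 15 to 18; and at 72 h against 6 h 13 to 20. DESeq2 called 16 at 6 h (of the 22, 5 lost and 1 with no adjusted p), 19 at 24 h and 11 at 72 h against 0 h. Correlations between the deviations of same-numbered libraries were -0.0235 to 0.184 over 21 pairs (18 above 0, 1 above 0.1, median 0.0308). Over 63 pairs of different number they were -0.156 to 0.0765 (median -0.0129). Of the 21 same-numbered pairs, 5 were above the highest pair of different number. The numbers were not taken as pairs in the main fit, and whether they mark a shared batch is not known. A replicate block gave 23, 24 and 12 calls at 6, 24 and 72 h against 0 h. It lost the calls of LOX4 comp95275_c0 at 6 h (adjusted p = 0.0863) and TPL comp135142_c0 at 72 h (0.101), and gained that of AOS comp115476_c0 at 24 h (0.0281). With the block, AOS comp115476_c0 had an adjusted p of 8.05e-05 at 6 h and 0.00246 at 72 h, where the main fit gave 0.024 and 0.0289.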

Other observations

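Library number 3 was the highest of its group at all 4 time points for 3 of the 53 jasmonate components (5.66%), LOX2 comp137538_c0, AOS comp115476_c0 and KAT2 comp135296_c0, and for 210 of all 23237 components (0.904%). For library numbers 1 and 2 the counts were 0 jasmonate components each, with 109 (0.469%) and 137 (0.59%) of all components. The labels do not say that a number marks a shared batch, and the number of jasmonate components is small.

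Corepressor genes outside the JA class moved in both directions at 6 h against 0 h. TPR1 comp111149_c0, with a TOPLESS-related gene as best hit, averaged 56.6 normalized counts at 6 h against 116 at 0 h (log2 change -1.07, adjusted p = 5.02e-06), and TPR1 comp107538_c0 27.9 against 57.9 (-1.09, adjusted p = 0.002). TPR1 comp137624_c0 averaged 1378 against 1139.6 (0.28, adjusted p = 0.0144), and TPR3 comp127442_c0 2156 against 1765 (0.29, adjusted p = 0.0285). They were chosen after their values had been seen.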
